A study of Caenorhabditis elegans with 52 samples.

Results

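Regular nucleosome arrays in wild-type germ nuclei of *C. elegans* were defined as stretches in which 8 or more consecutive nucleosomes each lay 140 to 200 bp from the next. A nucleosome was placed by its dyad, the middle of the DNA that it wraps. Dyads were taken from the merged wild-type library washed with low salt, on chromosomes I to V and X outside the 2 piRNA clusters of chromosome IV (IV:4800001-7000000 and IV:13500001-17300000). A dyad had to have a summit occupancy of at least 50, where summit occupancy is H3 signal minus input signal at its highest point. This rule found 75 arrays with 632 dyads, which are 0.184% of the 343215 dyads that could have entered one.

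Nucleosomes are laid down along DNA with a short stretch of linker between neighbours, and the distance between dyads is the sum of the wrapped DNA and the linker. ATP-dependent remodellers of the ISWI family slide nucleosomes and, in yeast and flies, set even spacing over arrays. ISW-1 is the ISWI ATPase of *C. elegans*. A map made from many nuclei averages over them, so positions that differ between nuclei are blurred in it. Fuzziness is a score of the spread of the reads around a dyad, and a lower score is a sharper position.

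H3 was measured by native ChIP-seq in germ nuclei isolated from young adults in 8 groups of 2 samples, 16 of the 52 samples of the series. The groups were the null mutant prde-1(mj207) (strain SX2499) and wild type (strain VC2010), and strain YL701 after 3 h of 1 mM auxin (labelled 3h KD) or of ethanol, each with a last wash of 500 mM NaCl (high salt) or 150 mM NaCl (low salt). PRDE-1 belongs to a germline complex that piRNA transcription needs. Both YL701 groups carry the transgene wrdSi51 on chromosome II, with mex-5p::TIR1 and mTagBFP2, and ISW-1::eGFP::AID on chromosome III, so ISW-1 is tagged with a degron in the ethanol controls too, and TIR1, the protein that couples auxin to degradation, is driven by the germline promoter mex-5p. Whether ISW-1 was lost cannot be read from these data, and the study's own list of strains does not name YL701. The prde-1 animals were harvested some hours later than wild type, at a like stage, and SX2499 becomes progressively sterile. The genotype fields of the high-salt prde-1 and wild-type samples are exchanged relative to their titles, and the treatment fields of the low-salt auxin and high-salt ethanol samples name the other wash. The titles were used.

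The 2 samples of each group were merged by the authors before deposit, so each group is 1 library, the spread between replicates is not known, and no comparison could be tested across replicates. Intervals below are exact binomial intervals over dyads or distances. Those of a difference between 2 shares combine the widths of the 2 exact intervals, as the root of the sum of their squares. All intervals cover counting error only and are too narrow, because dyads of an array are not independent. Depth is unknown. The arrays are defined by the wild-type low-salt library, so its spacing in them is a description, and prde-1 at low salt shares its table with the library of the rule. Many rows list the same coordinate in both libraries of a table, which was so for 107 of the 632 array dyads (16.9%) and for 20.99% of all dyads that could enter one. Without such dyads the rule found 15 arrays, an alternative added once the data had been seen.

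DNA of 6 arrays is shown to set the measured positions on the sequence. Each line gives 300 bases of the plus strand of the RefSeq genome (assembly WBcel235, the assembly called ce11) around 2 neighbouring dyads, and the capitals mark the linker, the bases that lie more than 73 bp from both dyads. The first lies in the gene *nurf-1* and is partly coding (52.3% of its bases), the second in an intron of *frm-10*, the third in coding sequence where *del-10* and *T28D9.4* overlap on opposite strands. The fourth is from the array with the widest spacing, the fifth from an array whose DNA resembles itself at nucleosome distance, and the last from the array on the X chromosome that fulfilled the rule in the most libraries. These last 3 lie between protein-coding genes.
nurf-1 array, chrII:14403383-14403682: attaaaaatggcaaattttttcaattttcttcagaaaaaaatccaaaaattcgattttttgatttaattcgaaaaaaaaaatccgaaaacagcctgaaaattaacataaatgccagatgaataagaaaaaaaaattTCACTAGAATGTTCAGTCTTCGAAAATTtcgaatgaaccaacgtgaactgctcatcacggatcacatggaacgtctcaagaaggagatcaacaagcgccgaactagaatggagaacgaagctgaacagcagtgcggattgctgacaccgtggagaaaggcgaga
frm-10 array, chrV:13464536-13464835: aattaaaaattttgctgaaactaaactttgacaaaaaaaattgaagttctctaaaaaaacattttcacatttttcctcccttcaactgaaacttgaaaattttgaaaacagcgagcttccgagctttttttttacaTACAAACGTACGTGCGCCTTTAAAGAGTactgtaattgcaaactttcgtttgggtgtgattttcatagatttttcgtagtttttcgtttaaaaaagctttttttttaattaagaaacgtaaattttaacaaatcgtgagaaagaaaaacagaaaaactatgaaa
del-10 array, chrII:6477524-6477823: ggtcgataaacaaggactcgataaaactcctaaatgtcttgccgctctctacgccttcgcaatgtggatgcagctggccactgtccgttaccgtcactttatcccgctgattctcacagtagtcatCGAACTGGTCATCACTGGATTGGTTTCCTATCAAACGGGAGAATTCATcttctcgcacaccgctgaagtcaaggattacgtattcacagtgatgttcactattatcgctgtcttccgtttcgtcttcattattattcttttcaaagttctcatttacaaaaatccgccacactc
widest array, chrV:11280318-11280617: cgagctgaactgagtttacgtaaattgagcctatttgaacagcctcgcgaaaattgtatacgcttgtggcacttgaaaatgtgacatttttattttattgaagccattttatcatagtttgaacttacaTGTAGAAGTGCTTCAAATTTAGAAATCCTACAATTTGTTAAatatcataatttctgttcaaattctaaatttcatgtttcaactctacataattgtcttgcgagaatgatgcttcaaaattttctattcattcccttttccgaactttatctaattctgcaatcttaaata
self-similar array, chrV:19498926-19499225: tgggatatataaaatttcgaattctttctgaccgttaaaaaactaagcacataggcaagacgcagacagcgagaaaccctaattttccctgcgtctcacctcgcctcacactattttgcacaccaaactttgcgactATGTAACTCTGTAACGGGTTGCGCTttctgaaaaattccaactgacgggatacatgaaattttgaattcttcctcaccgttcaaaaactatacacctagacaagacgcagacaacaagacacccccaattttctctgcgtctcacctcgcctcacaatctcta
X array, chrX:6220585-6220884: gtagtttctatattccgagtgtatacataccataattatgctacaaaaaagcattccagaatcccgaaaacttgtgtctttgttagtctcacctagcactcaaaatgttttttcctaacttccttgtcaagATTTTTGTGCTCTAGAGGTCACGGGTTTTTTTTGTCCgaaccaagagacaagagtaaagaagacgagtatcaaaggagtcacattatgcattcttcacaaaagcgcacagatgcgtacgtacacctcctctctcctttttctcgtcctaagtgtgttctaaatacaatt
The dyads around these linkers lay 175 bp apart in the *nurf-1* and *frm-10* arrays, which leaves 28 bp of linker, 195 bp apart in *del-10* with 48 bp of linker, and 188 bp apart in the widest array with 41 bp of linker. GC made up 32.1% of the *nurf-1* linker, 42.9% of the *frm-10* linker, 43.8% of the *del-10* linker and 26.8% of the linker in the widest array, so these linkers differed in base composition.

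Neighbouring dyads in the arrays lay a median of 175 bp apart (interval 173 to 178, 557 distances), with quartiles of 161 and 187 bp. The median leaves 28 bp of linker beside the 147 bp that a nucleosome wraps. Distances were spread over the whole window of the rule, with 71 of 140 to 149 bp, 126 of 180 to 189 bp and 103 of 190 to 199 bp. The mean distance of an array ran from 159.5 to 188.6 bp, with an SD of 5.74 bp between arrays (n = 75). Within an array the SD of its distances had a median of 16.9 bp and ran from 8.70 to 24.96 bp. The arrays were 1124 to 1804 bp long from first to last dyad (median 1228 bp) and covered 96.5 kb in all.

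Of the 75 arrays, 53 had 8 dyads, 15 had 9, 4 had 10 and 3 had 11. Just outside the rule, which held 424 dyads in its arrays of 8, runs of 7 held 833 dyads. Runs of 6 numbered 370 and runs of 5 numbered 1248, so the number of runs dropped steadily with length and the arrays are its far end. The distance that broke off an array was under 140 bp at 60 of its 150 ends (the closest 139 bp) and over 200 bp at 90 (the closest 201 bp), and it missed the window by 20 bp or less at 29 of the short and 26 of the long ones. Arrays therefore often stopped at a distance little different from those inside.

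The 3 arrays of 11 dyads lay on chromosomes I, III and V. One spanned V:13464455-13466186 in *frm-10*, which encodes a protein with a FERM domain, with 8 dyads in introns and 3 in exons. Its distances in order were 143, 175, 165, 181, 185, 155, 171, 178, 191 and 187 bp. Another filled I:14764538-14766342, within introns of *gpr-158*, with distances of 179, 196, 162, 193, 179, 186, 194, 181, 192 and 142 bp. The last spanned III:2101266-2103023 at *ppk-2*, which encodes a phosphatidylinositol phosphate kinase, with 5 of its dyads in that gene and 6 between genes. Its summit occupancies were 716, 1700, 2107, 151, 1221, 84.1, 137, 125, 223, 360.5 and 542, so nucleosomes of very unequal occupancy made up this array. Its distances ran from 143 to 198 bp (SD 17.4 bp). Arrays of 10 dyads lay at *sol-2*, in *T23G7.2*, at *nhr-65* and at II:14964529-14966123 between genes. *ncx-1*, a sodium-calcium exchanger gene, held the array of 9 dyads with the highest mean occupancy.

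The narrowest spacing was in an array of 9 dyads at IV:127263-128539, at the end of *cox-6C*, a gene for a cytochrome c oxidase subunit, at a mean of 159.5 bp. *M01E5.2* on chromosome I (160.6 bp) and II:2873597-2874735 (162.6 bp) followed. The widest was V:11279817-11281137 (188.6 bp), between genes, and it was also the most even, with distances of 197, 183, 176, 188, 199, 195 and 182 bp (SD 8.70 bp). *ekl-4* (185.4 bp) and I:1541792-1543076 (183.4 bp) came next. The 8 summit occupancies of the widest array were 1991, 416, 96.8, 357, 366, 111, 208 and 157, with a single dominant nucleosome at its first position. In each of the other 7 libraries the highest dyad of the span lay within 25 bp of that position, at a summit occupancy of 894 to 3018.

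Summit occupancy in the arrays had a median of 252, against 192 for the other dyads of the same library. The mean of an array ran from 135 on the X chromosome to 694 (median 300.3). Fuzziness was alike, with a median of 35.1 in arrays and 35.3 elsewhere. The 482 inner dyads of the arrays had a higher median occupancy (258) than the 150 first and last dyads (219.7), and a lower fuzziness (33.8 in inner dyads, 38.8 in outer dyads). All values of this paragraph come from the library of the rule and are descriptions.

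Arrays were sparse on the X chromosome and frequent on the outer parts of the autosomes. The X held 3 arrays of the 75, which is 0.0413% of its 60546 dyads (interval 0.0267 to 0.0609), against 0.215% on autosomes (0.198 to 0.233). Distances over 200 bp were somewhat more frequent on the X, at 60.7% of distances against 54.6% on autosomes, and the median distance between any neighbours was 228 bp on the X and 210 bp on autosomes. Chromosome III had the highest share among autosomes (0.291%, 19 arrays) and IV the lowest (0.176%, 9 arrays). The X is largely silent in the germ line of *C. elegans*, which is background and was not tested against these values. All 3 X arrays lay between protein-coding genes, and their 25 dyads had a median occupancy of 151, against 166 for other X dyads, the reverse of the autosomes.

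On the autosomes 52 arrays lay in the outer parts, the first and last 25% of each chromosome, and 20 in the central parts. This is 0.303% of dyads in the outer parts (0.275 to 0.332) and 0.122% in the central parts (0.104 to 0.142), or 13.9 and 5.12 arrays per 10 Mb. Single distances in the window differed less between the same regions, with 29.0% in the outer and 24.8% in the central parts. Dyads were also denser in the outer parts (3.88 per kb against 3.51 per kb) and had a higher median occupancy (216 against 182). Whether density and occupancy account for the number of arrays was not tested. The plot of arrays by chromosome shows both contrasts.

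**Figure D1:**
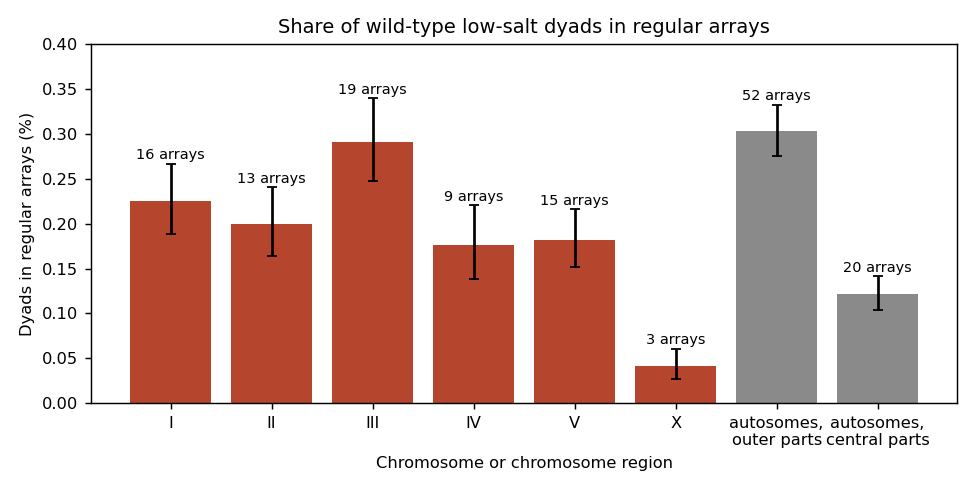
Share of wild-type low-salt dyads that lie in a regular array (vertical axis, percent) by chromosome (red) and in the outer and central parts of the autosomes (grey), with exact 95% binomial intervals over dyads and the number of arrays above each bar. The X, with 3 arrays, has the lowest bar (0.0413%), and the outer parts of the autosomes stand above the central parts.

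The same rule was then applied to each of the other libraries, which the definition had not used. The share of dyads in arrays was lower on the X than on autosomes in all 7. It was 0.113% on X and 0.355% on autosomes in prde-1 at high salt, and 0.0273% on X and 0.0416% on autosomes in auxin at low salt. Wild type at high salt had the most X arrays, 18 beside 157 on autosomes (0.241% and 0.452%). All 4 libraries of YL701 had 2 X arrays each, in auxin beside 13 (low salt) and 17 (high salt) on autosomes. The shares of auxin thus rest on few arrays. Its single distances in the window hardly differed, at 23.4% on X and 23.6% on autosomes at low salt. At high salt both were 24.9%.

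Array dyads lay in genes about as often as other dyads did, and somewhat nearer to annotated 5′ ends. Of the 632 array dyads, 402 (63.6%, interval 59.7 to 67.4) lay in a protein-coding gene, against 64.4% of other dyads. Introns held 35.8% of both, exons 27.8% of array dyads against 28.6%, and regions between genes 34.3% against 32.3%. On autosomes alone, 66.2% of array dyads and 66.6% of others lay in a protein-coding gene. The median distance to an annotated 5′ end was 1241.5 bp for array dyads and 1577 bp for others. Within 500 bp of one, on either side, lay 22.8% of array dyads and 19.4% of others, and in the 500 bp upstream of that stretch 10.9% of array dyads and 7.31% of others. The 632 array dyads lie in 75 arrays, so neighbours can share a 5′ end, and these differences carry no interval. Many *C. elegans* transcripts are trans-spliced, so that the annotated 5′ end is not where transcription starts. Of the 75 arrays, 32 lay with all their dyads in a single gene, 13 touched 2 or more genes, and 15 lay wholly outside annotated genes.

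At least 4 array dyads lay in 54 protein-coding genes, 0.283% of the 19075 outside the clusters. These genes were long, with a median of 5446.5 bp, against 2028 bp over all genes. *frm-10* and *gpr-158* held 11 array dyads each and *T23G7.2* held 10. With 9 each followed *Y52B11A.4*, *ddx-35*, *grdn-1*, *ncx-1*, *nspg-8*, *sam-10* and *sdz-20*. Among genes that held 8, named after their values were seen, were *gpi-1*, which encodes the glycolytic enzyme glucose-6-phosphate isomerase, *atg-4.1*, an autophagy protease, *ints-6*, a subunit of the Integrator complex, *laf-1*, a DEAD-box RNA helicase, and *nurf-1*. The dyads counted in *laf-1* also lie in *cox-6B*, whose annotated span runs over 87197 bp on the other strand.

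Gene families and cell type lists were almost free of arrays. No gene reached 4 array dyads among 74 ribosomal protein genes, 72 histone genes, 22 major sperm protein genes, 152 cuticle collagen genes, 230 C-type lectin genes, 452 chemoreceptor genes, 317 F-box genes, 32 proteasome genes or 6 vitellogenin genes. None did among the 40 germ line genes matched of 45 listed, 12 muscle genes, 10 matched of 11 intestine genes and 20 neuron genes, and none of these lists held a single array dyad. Against the 0.283% of all genes, a count of 0 in lists of this size is no result about the lists. Of the 5 genes of ISWI and its partners, *nurf-1* held 8 array dyads. It encodes the large subunit of the NURF complex, which contains ISW-1, and is 17199 bp long. H3 occupancy gives no check of the tissue by markers.

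Base composition of the arrays was that of other nucleosomes, while their repeat content was higher. GC within 73 bp of the dyad averaged 35.8% ± 7.68 in array dyads (SD, n = 632) and 35.99% ± 7.70 in other dyads. The 20 bp at the dyad had 35.9% GC in arrays and 34.7% elsewhere, and the 20 bp midway between neighbours 140 to 200 bp apart had 35.6% in arrays and 34.5% elsewhere, so dyad and linker had nearly the same GC in both sets. Steps of AA or TT made up 29.2% of all steps in array nucleosomes and 27.4% in others. Pairs of such steps 10 bp apart, about a turn of the helix, were 1.30 times as frequent as the mean of 5 and 15 bp in arrays and 1.19 times in every 20th of the others, and in the outer parts of the autosomes 1.37 and 1.30 times.

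Bases written in lower case in the RefSeq genome, which marks repeats, made up 46.1% of the arrays and 35.7% of the genome. Around dyads in the outer parts of the autosomes the difference was smaller, with 50.98% in arrays and 47.6% elsewhere. In 29 arrays over 50% of the bases were so marked. Comparing each array with itself shifted by 140 to 200 bp gave a median best identity of 30.99%, and 2 arrays stood above 50%. One lay in *png-1* on chromosome I, with 97.9% of its bases marked as repeat, 21.2% GC and an identity of 82.1% at a shift of 140 bp, below its mean distance of 167.9 bp. The other was V:19497932-19499161, with an identity of 51.7% at a shift of 182 bp and a mean distance of 175.6 bp. It is the self-similar array printed above.

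Over the same spans the other 7 libraries were more regular than the rest of their genome, and far less regular than the library that defined the arrays. A span runs 73 bp beyond the outer dyads. In prde-1, 46.5% of the neighbour distances in the spans at high salt were 140 to 200 bp (217 of 467, interval 41.9 to 51.1), against 29.4% elsewhere, and 48.5% of those at low salt were (222 of 458, 43.8 to 53.2), against 25.7% elsewhere. High-salt wild type had 53.8% (245 of 455, 49.1 to 58.5) in the spans, against 30.5% elsewhere. After auxin the share was 35.01% at low salt (125 of 357, 30.1 to 40.2) against 23.5% elsewhere, and 33.0% at high salt (114 of 345, 28.1 to 38.3) against 24.9% elsewhere. Ethanol gave 42.6% at low salt (184 of 432, 37.9 to 47.4) against 25.3% elsewhere, and 44.7% at high salt (174 of 389, 39.7 to 49.8) against 25.1% elsewhere. All 7 intervals lay above the share of the rest, with prde-1 at low salt sharing its table with the library of the rule. Distances that cross the end of a span were counted with the rest. The spans were chosen for having no wild-type distance over 200 bp, and their median occupancy was above the rest in each library. What these contribute to the higher shares was not tested.

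The contrast was also present within the outer parts of the autosomes. When both the arrays and the rest were restricted to the outer parts of the autosomes (52 arrays), the spans kept 33.3% to 51.1% of distances in the window in these libraries, against 23.5% to 32.0% for the rest. Distances outside the window were mostly long. In auxin at high salt 49.0% of the distances in the spans were over 200 bp, against 36.8% in ethanol at high salt, and 420 dyads were listed in auxin and 464 in ethanol, against 632 in the library of the rule.

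**Figure D2:**
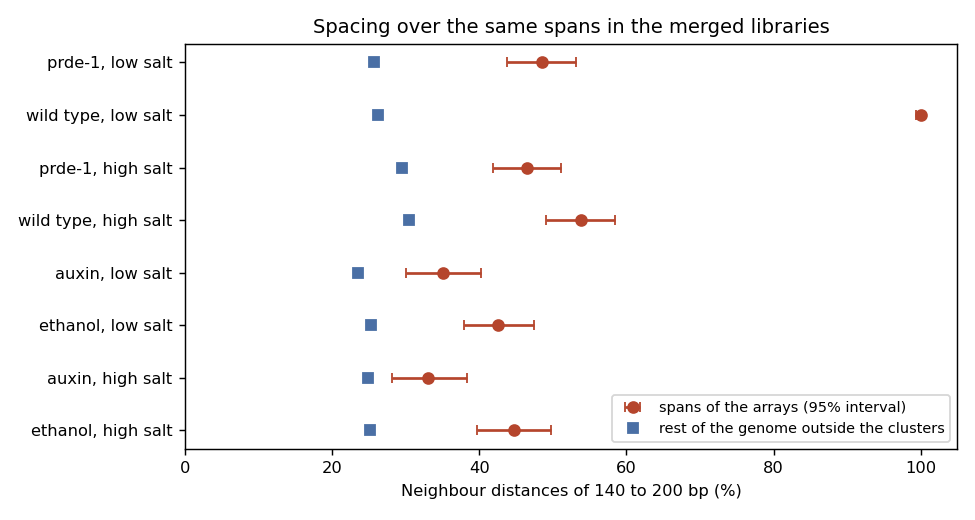
Share of neighbour distances of 140 to 200 bp (horizontal axis, percent) over the spans of the 75 arrays (red, with exact 95% binomial intervals over distances) and over the rest of the genome outside the clusters (blue) in each of the 8 merged libraries. In every library the spans lie to the right of the rest, and wild type at low salt is at 100% because it defined the arrays.

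The order went beyond the nearest neighbour, though hardly so in auxin. In wild type at high salt the pairs of dyads per 100 dyads of the spans peaked at 19.4 for distances of 160 to 179 bp, stood at 3.02 for 240 to 259 bp and at 12.5 for 340 to 359 bp, while the rest of that library had 10.5, 6.56 and 9.70 at the same distances. Auxin at high salt had its first maximum of 10.5 pairs at 180 to 199 bp, its lowest bin before the second maximum at 300 to 319 bp (4.05) and the second maximum at 360 to 379 bp (8.10). In ethanol at high salt the first maximum was 14.9 pairs at 180 to 199 bp, the lowest bin 3.88 at 260 to 279 bp and the second maximum 10.8 at 340 to 359 bp. With the low-salt wash the maxima were 11.1 and 7.64 pairs in auxin, and 12.6 and 11.2 pairs in ethanol. Both maxima were thus lower in auxin than in ethanol. The second maximum of auxin stood little above its rest, which had 7.47 pairs (low salt) and 7.89 pairs (high salt) at 360 to 379 bp. In auxin at low salt the spans had more pairs, 8.80, at 540 to 559 bp. Auxin also listed fewer dyads in the spans than ethanol, for which these values were not adjusted.

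**Figure D3:**
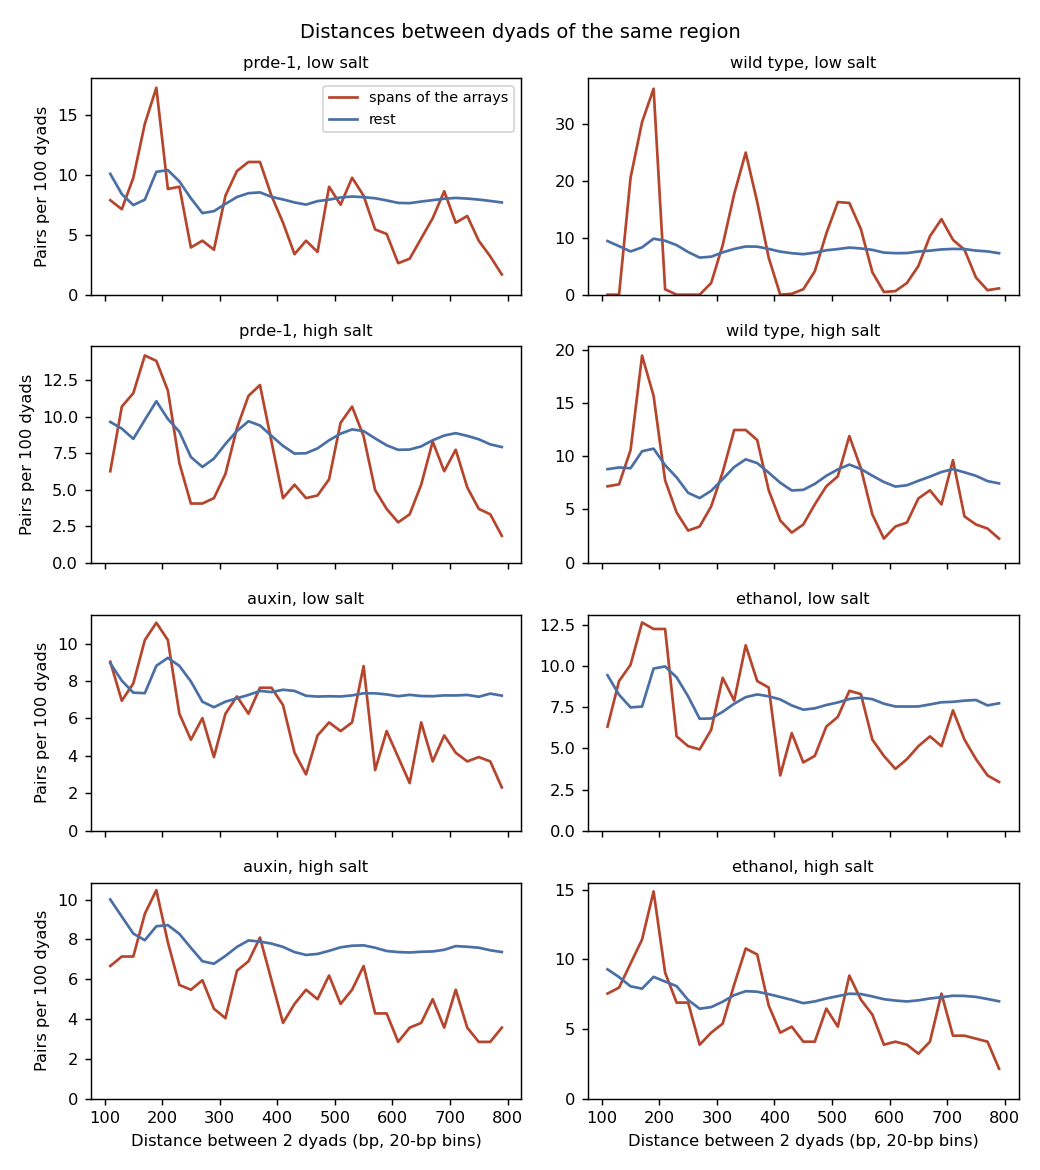
Pairs of dyads per 100 dyads (vertical axis, a scale of its own in each panel) by the distance between them (horizontal axis, bp in 20-bp bins) within the spans of the arrays (red) and within the rest of the genome (blue) in each merged library. In every library the spans have a maximum between 160 and 199 bp and another between 320 and 399 bp, and both maxima are lower in auxin than in ethanol. In auxin the second stands little above the rest.

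Array dyads also had a dyad of another library close by more often than other dyads did. Of the 632 array dyads, 47.3% had a dyad within 20 bp in prde-1 at high salt, against 34.3% of the other wild-type low-salt dyads, and 49.8% had one in prde-1 at low salt, against 37.3%. In wild type at high salt the shares were 45.6% of array dyads and 30.8% of others. After auxin they were 33.7% and 27.05% with low salt, and 29.1% and 25.8% at high salt. In YL701 with ethanol they were 41.5% and 32.4% (low salt) or 33.2% and 25.8% (high salt). Array dyads were ahead of the others in all 7 libraries, of which prde-1 at low salt shares its table with the library of the rule. The other dyads had a lower median occupancy (192 against 252) and a wider median distance (213 bp against 175 bp). They were not matched for either, so what these contribute was not tested.

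Whole arrays seldom recurred. In 71 of the 75 spans no other library fulfilled the rule over the span, in 3 a single library did and in 1 span 2 did. By the same rule the low-salt libraries of prde-1, auxin and ethanol had 53, 15 and 47 arrays, and the high-salt libraries of prde-1, wild type, auxin and ethanol had 134, 175, 19 and 32. The share of single distances in the window over all dyads was 29.5% in prde-1 and 30.6% in wild type with the high-salt wash, 23.6% in auxin at low salt and 26.4% in the library of the rule. Of the 75 arrays 3 (4.00%) overlapped an array of prde-1 at high salt (2.24% of its 134), 2 (2.67%) one of low-salt prde-1 (3.77% of its 53) and 4 (5.33%) one of wild type at high salt (2.29% of its 175). No array overlapped one of either auxin library. Of the 75, 3 (4.00%) overlapped one of ethanol at low salt (6.38% of its 47) and 1 (1.33%) one of ethanol at high salt (3.13% of its 32). The 2 wild-type libraries, which share a genotype and differ in the wash, thus had most of their arrays in different places. Of all dyads, 0.0388% (low salt) and 0.0466% (high salt) lay in arrays in auxin, and 0.115% and 0.0835% in ethanol. The share was 0.129% in prde-1 at low salt, 0.312% in prde-1 at high salt and 0.414% in wild type at high salt. With so few arrays in auxin, nothing is read from its lack of overlap.

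The 4 arrays that recurred lay on chromosomes I, II, V and X. At X:6219637-6220826, outside protein-coding genes, the rule was fulfilled in both high-salt libraries, prde-1 and wild type. Distances were 183, 164, 184, 147, 168, 154 and 173 bp in prde-1 at high salt, 188, 181, 141, 167, 164, 173 and 180 bp in wild type at high salt, and 163, 189, 164, 140, 191, 158 and 184 bp in wild type at low salt. All 8 dyads of each of these high-salt libraries lay within 28 bp of a dyad of the array. Auxin listed 5 dyads there with either wash, and ethanol 7 (low salt) and 4 (high salt). *Y52B11A.4* on chromosome I and V:19497932-19499161, the self-similar array, fulfilled the rule again in prde-1 at low salt.

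The array in *nurf-1* (II:14402556-14403788) fulfilled it again in prde-1 at high salt. In that library its dyads lay -17, 172, 347, 542, 730, 892, 1057 and 1218 bp from the first dyad of the array, with summit occupancies of 379, 437, 324, 932, 269, 376, 229 and 337. In wild type at low salt they lay at 0, 197, 358, 544, 704, 889, 1064 and 1232 bp with occupancies of 209.9, 531, 325, 889, 694, 488, 633 and 411. The fourth nucleosome of the array was the highest in both. Auxin at high salt listed 5 dyads, at 78, 237, 348, 534 and 883 bp, against 6 in ethanol at high salt, at 175, 327, 534, 713, 883 and 1051 bp. At low salt both auxin and ethanol listed 8 dyads, of whose 7 distances 57.1% were in the window in each. Dyads at 534 and 883 bp were listed by both high-salt libraries of YL701, while the dyad at 713 bp in ethanol had no listed counterpart of 50 or more in auxin.

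**Figure D4:**
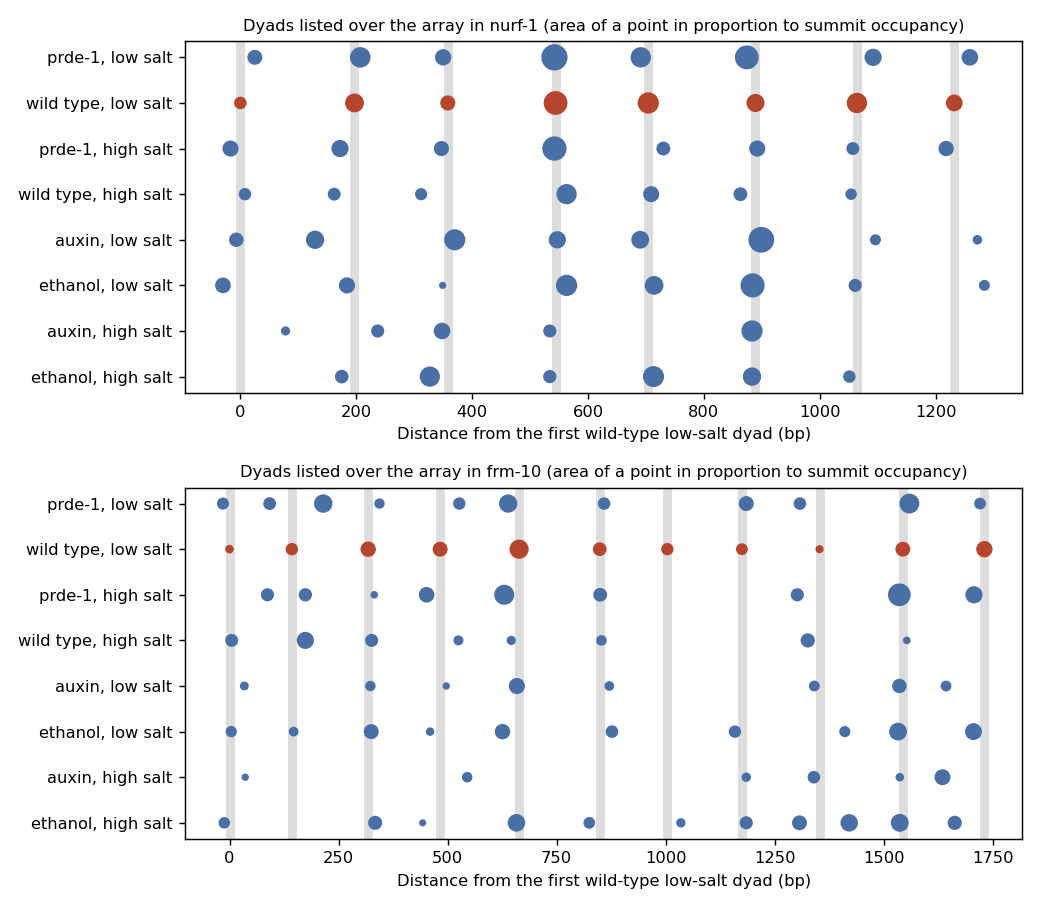
Dyads with a summit occupancy of 50 or more over the arrays in nurf-1 (8 dyads) and frm-10 (11 dyads) in each of the 8 merged libraries (rows), by distance from the first wild-type low-salt dyad (horizontal axis, bp), with the area of a point in proportion to summit occupancy. Grey bars mark the dyads of the array, and the wild-type low-salt library that defined them is red. Auxin at high salt lists 5 dyads in nurf-1 and 6 in frm-10, and ethanol at high salt lists 6 and 11.

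The array in *frm-10* had 20.0% to 44.4% of its distances in the window in the other 7 libraries. Of 11 dyads listed in prde-1 at low salt, neighbours lay 107, 123, 129, 183, 112, 220, 326, 123, 251 and 162 bp apart, so 2 distances of 10 (20.0%) were in the window. Auxin at high salt listed 6 dyads and ethanol at high salt 11, with 40.0% and 20.0% of distances in the window. Mean summit occupancy over the listed nucleosomes was 125 in auxin and 230.5 in ethanol at low salt, and 79.3 in auxin and 234.6 in ethanol at high salt.

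In prde-1 the spans were less regular than in wild type at high salt, with a difference of -7.38 points (46.5% in prde-1, 53.8% in wild type). The interval of this difference was -14.0 to -0.81 points, and the difference in the rest of the genome was -1.08 points. The share was lower in prde-1 in 42 spans, higher in 24 and equal in 9. Without the dyads listed at 1 position for both libraries the sign turned (6.51 points higher in prde-1, 15 arrays), and in the outer parts of the autosomes the interval of the difference included 0 (-5.76 points, -13.7 to 2.14). At low salt the share was 48.5% in prde-1 and 100% in wild type by definition. Arrays defined in the other library of each table were also much less regular in the partner. Over the 53 arrays of prde-1 at low salt 51.5% of the wild-type distances were in the window. With the high-salt wash, 49.8% of the prde-1 distances were over the 175 wild-type arrays, and 51.4% of the wild-type distances over the 134 prde-1 arrays. The low-salt value is set by the choice of arrays in wild type. At high salt wild type shares its genotype with the library of the rule, so the choice could favour it, which was not tested.

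H3 occupancy in the spans was higher in prde-1 than in wild type at high salt. The median over the 642 listed nucleosomes was 239 in prde-1 and 203 in wild type, and the median change was 0.29 on the log2 scale with a pseudocount of 1 (interval 0.17 to 0.38), against 0.05 elsewhere. Of the 75 arrays 48 had a higher mean in prde-1 and 27 a lower one. In prde-1 193 nucleosomes of the spans (30.1%) were at least 2-fold higher, where 33.5% of all nucleosomes were, and 135 (21.03%) at least 2-fold lower, where 30.0% of all were. Nucleosomes at least 2-fold lower were thus less frequent in the spans than elsewhere, as were those listed at 0 in either library (16.0% in the spans, 34.4% elsewhere). Leaving out the 29 arrays of mostly repeat bases gave a difference between spans and rest of 0.038 (interval -0.090 to 0.24). With them it was 0.23 (0.12 to 0.33). These intervals overlap, and whether the higher level depends on those arrays was not tested.

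At low salt the sign was the other way. The median over 645 nucleosomes was 216 in prde-1 and 246 in wild type, and the median change was -0.19 (-0.32 to -0.07) against 0.00 elsewhere. In prde-1 96 (14.9%) were at least 2-fold higher, where 30.8% of all were, and 192 (29.8%) at least 2-fold lower, where 30.0% of all were. The wild-type values of this table chose the spans, and nothing is read from these counts. Among nucleosomes of 50 or more in both libraries the medians were 0.03 in the spans and 0.06 elsewhere, so the difference was then -0.026.

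Fuzziness of nucleosomes with 50 or more in both libraries was higher in prde-1 within the spans. At low salt the medians were 38.8 in prde-1 and 35.3 in wild type, with a median change of 1.85 (0.58 to 3.24) against 0.26 elsewhere. At high salt they were 35.8 in prde-1 and 33.3 in wild type, with a median change of 1.22 (0.06 to 2.69) against 0.60 elsewhere, so only the low-salt interval, in the table that chose the spans, lay clear of the rest. The low-salt difference between spans and rest (1.60, interval 0.32 to 2.98) was no longer clear of 0 with a minimum of 100 (0.55, -1.12 to 2.66), in the outer parts of the autosomes (1.11, -0.63 to 2.84) or without the 29 arrays of mostly repeat bases (1.37, -0.40 to 3.07).

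Single arrays followed no common course between prde-1 and wild type. Among arrays above the median level, those with the lowest ratios at high salt that were also lower at low salt were in *toe-1*, in *del-10*, a gene of the DEG/ENaC channel family, and the X array. *toe-1* had a mean of 258 in prde-1 and 331 in wild type at high salt, and 309.9 in prde-1 and 399.97 in wild type at low salt. The X array had 329 in prde-1 and 395 in wild type at high salt, and 136 in prde-1 and 257 in wild type at low salt. Under the same limit on level, and higher at low salt too, the highest ratios were at III:13016630-13017894, in *arid-1* and at II:14273480-14274844. The first had 451 in prde-1 and 205 in wild type at high salt (log2 ratio 1.13), and 534 in prde-1 and 448 in wild type at low salt (0.25). *arid-1*, with log2 ratios of 1.12 at high salt and 0.40 at low salt, was likewise higher in prde-1. The wild-type low-salt values chose the spans, so nothing is read from the low-salt ratios of any of these arrays.

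After auxin the spans were less regular than in ethanol at both washes. The difference in the share of distances in the window was -7.58 points at low salt (35.01% in auxin, 42.6% in ethanol) and -11.7 points at high salt (33.0% in auxin, 44.7% in ethanol). Elsewhere it was -1.79 and -0.20 points. At high salt the intervals of the 2 libraries (28.1 to 38.3 in auxin, 39.7 to 49.8 in ethanol) did not overlap, and at low salt they did (30.1 to 40.2 in auxin, 37.9 to 47.4 in ethanol). For the difference itself the interval was -14.5 to -0.62 points at low salt and -18.9 to -4.51 points at high salt. By span the share was lower in auxin in 47, higher in 21 and equal in 7 at low salt, and lower in 44, higher in 20 and equal in 10 of 74 at high salt. No library of YL701 took part in choosing the arrays. Of the other dyads of the library of the rule, 27.05% had a dyad within 20 bp in auxin and 32.4% in ethanol at low salt. At high salt the share was 25.8% in each. Ethanol listed more dyads than auxin at low salt (348711 against 322231) and fewer at high salt (319760 against 338897), for which these shares were not adjusted. What nearness to the library of the rule contributes to the differences in regularity was not tested. The low-salt difference was -4.02 points without the arrays of mostly repeat bases (interval -13.1 to 5.08) and -6.16 points in the outer parts of the autosomes (-14.5 to 2.18), where both intervals include 0, and with distances of 150 to 190 bp, which left 6 arrays, it turned (16.7 points higher in auxin).

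Fewer nucleosomes of 50 or more were listed over the spans after auxin, with 432 dyads in auxin and 507 in ethanol at low salt, and 420 in auxin and 464 in ethanol at high salt. Fewer dyads make longer distances. Over the whole genome outside the clusters auxin had 322231 such dyads and ethanol 348711 at low salt, and auxin 338897 and ethanol 319760 at high salt, so the deficit in the spans at high salt ran against the genome. Of the 75 spans 15 had at least 8 dyads in auxin and 23 in ethanol at low salt, and 8 in auxin and 14 in ethanol at high salt.

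Occupancy in the spans was lower in auxin. At low salt the median over 642 nucleosomes was 146 in auxin and 201 in ethanol, with a median change of -0.41 (-0.60 to -0.27) against -0.08 elsewhere. At high salt it was 128 in auxin and 157 in ethanol over 629 nucleosomes, with -0.18 (-0.39 to -0.02) against 0.03 elsewhere. The mean of the array was lower in auxin in 55 arrays and higher in 20 at low salt, and lower in 48 and higher in 27 at high salt. At low salt 250 nucleosomes of the spans (38.9%) were at least 2-fold lower, where 35.9% of all were, and 135 (21.03%) at least 2-fold higher, where 28.8% of all were. At high salt 225 (35.8%) were at least 2-fold lower, where 31.6% of all were, and 169 (26.9%) at least 2-fold higher, where 36% of all were. The shares at least 2-fold lower lay a few points above the background, and those at least 2-fold higher below it. The high-salt difference between spans and rest (-0.21) became -0.047 with a minimum of 100, which left 25 arrays, and -0.083 in the outer parts of the autosomes. The low-salt difference (-0.33) became -0.18 there, and 0.00063 with distances of 150 to 190 bp.

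Fuzziness in the spans differed little between auxin and ethanol. Medians at low salt were 35.8 in auxin and 35.7 in ethanol, with a median change of -0.13 (-1.44 to 1.89). At high salt they were 33.9 in auxin and 35.8 in ethanol, with a change of -1.63 (-3.49 to 0.67) against 0.63 elsewhere. Both intervals held the change of the rest of the genome.

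**Figure D5:**
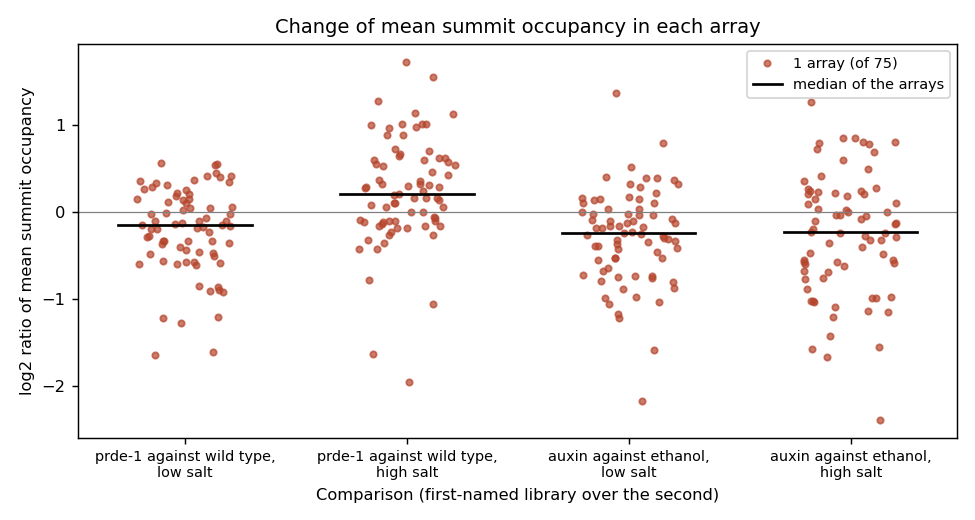
Log2 ratio of the mean summit occupancy (vertical axis, pseudocount of 1) of each of the 75 arrays in 4 comparisons, the first-named library over the second, with the median of the arrays as a bar. Medians lie at -0.16 (low salt) and 0.20 (high salt) for prde-1, and at -0.25 (low salt) and -0.23 (high salt) for auxin, and arrays lie on both sides of 0 in each.

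The arrays with the lowest ratios after auxin at high salt, among those above the median level and also lower at low salt, were in *M01E5.2*, *toe-1* and *del-10*. *M01E5.2* had a mean of 41.0 in auxin and 219.5 in ethanol at high salt (log2 ratio -2.39), and 212 in auxin and 356 in ethanol at low salt (-0.75). *toe-1* had 171 in auxin and 545 in ethanol at high salt (-1.67), and 310.2 in auxin and 415 in ethanol at low salt (-0.42). *del-10* had 209 in auxin and 565 in ethanol at high salt (-1.43). *toe-1* and *del-10* are also 2 of the 3 named above for prde-1 under the same condition, where the low-salt values of wild type chose the spans. Nothing is read from this overlap. Only 2 arrays met the same condition with a higher mean in auxin. They were in *pqn-80*, with 177 in auxin and 146 in ethanol at high salt (0.28), and *arid-1*, with 444 in auxin and 384 in ethanol (0.21), both with smaller differences than those above.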

How the data were processed

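Groups were taken from sample titles. Paired reads had been mapped to ce11 by the authors (bowtie2). Low-quality and duplicate reads were dropped, the larger of 2 replicates was thinned to the smaller, both were pooled and corrected for GC, and DANPOS3 called nucleosomes from fragments of mononucleosome size against input. Only the prde-1 and wild-type tables are named as GC corrected. The deposited summit occupancy is a signal, H3 minus input, scaled by the authors to 1 total per library, so levels were compared only within a table. The deposited fuzziness is a score, and positions are in bp. The authors' own log2 fold changes, p-values and FDR were not used. Chromosome lengths of the reference exceeded every listed position.

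Arrays, distances and medians were computed with Python 3.11.15, numpy 2.4.6, pandas 2.3.3 and scipy 1.17.1. Genes are from Ensembl release 115 and bases from RefSeq. Occupancy changes are log2 ratios after adding a pseudocount of 1, and low values therefore differ by more than these show. Calling was tested on simulated arrays. Alternatives were a minimum of 100, distances of 150 to 190 bp, runs of 10 or more, shorter spans, a pseudocount of 10, 50 or more in both libraries, the mean, all fuzziness scores, whole nucleosomes in genes and 1 dyad in a gene. Others, chosen after seeing the data, left out coincident positions, rows without both positions, central chromosome parts and repeat-rich arrays.

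Members, lists and tests were chosen with earlier results of these data known. Arrays were named by number of dyads (8), lowest and highest mean distance (3 each), recurrence (up to 6) and lowest and highest ratios of the mean with the same sign at both washes (3 each, among arrays above the median level over the 8 libraries), and genes by array dyads (5, ties included). Samples other than H3 were not used here.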

Additional observations from a re-analysis of the deposited data

Results flagged for a closer look

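Occupancy in the spans of the arrays differed from the rest of the genome in opposite directions between prde-1 and wild type at the 2 washes. At low salt the median change in the spans minus that of the rest was -0.19 on the log2 scale, and at high salt it was 0.23. Each wash is 1 merged library per genotype, so the difference between the washes was not tested. The wild-type low-salt values chose the spans, and with 50 or more in both libraries the values were -0.026 at low salt and 0.19 at high salt.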

How the results depend on the processing

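No paired analysis was possible because each group was deposited as a single library pooled from its 2 samples, and for the same reason no replicate could be left out in turn. Depth is not known, so neither limits nor floors can be given. Under the alternatives 95 values kept the sign of the reported one and 10 had the opposite sign, among them 4 whose reported interval excluded 0. Besides these 4, 73 values stayed within the reported interval, or within 1.5 times a count, and 28 did not. The 73 include values of the opposite sign, 1.37 points for dyads in genes with runs of 10 or more, and a fuzziness for auxin at low salt of 0.57 in the outer parts of the autosomes and 0.48 with all scores (-0.51 as reported). They also include a fuzziness for auxin at high salt of -0.03 with distances of 150 to 190 bp (-2.25 as reported). The cause was not tested, but few arrays remained under several choices: 25 with a minimum of 100, 6 with distances of 150 to 190 bp, 7 with runs of 10 or more dyads and 15 with coincident positions left out. For these 4 choices in the same order the X chromosome minus autosomes was -0.0912, -0.0180, -0.0258 and -0.0567 points. A minimum of 100 gave differences of occupancy between spans and rest of -0.047 for auxin at high salt, 0.43 for prde-1 at high salt and -0.031 for prde-1 at low salt, and a share of distances of -46.2 points for prde-1 at low salt. Distances of 150 to 190 bp gave -11.4 points for dyads in genes, an occupancy of 0.00063 for auxin at low salt and -0.27 for prde-1 at high salt, a share of 16.7 points for auxin at low salt and a fuzziness of -0.82 for prde-1 at high salt. Runs of 10 or more gave a median distance of 179.5 bp, an occupancy of -0.66 for auxin at high salt, a share of -14.6 points for auxin at low salt, and a fuzziness of 2.58 for auxin at low salt, -1.15 for prde-1 at high salt and 6.40 for prde-1 at low salt. Coincident positions left out gave shares of 6.51 points for prde-1 at high salt and -36.8 points for prde-1 at low salt. The mean in place of the median gave occupancies of -0.77 for auxin at high salt and -0.84 for prde-1 at low salt. A value of 50 or more in both libraries gave -0.026 for prde-1 at low salt, the outer parts of the autosomes -0.18 for auxin at low salt, and arrays without the repeat-rich ones 0.038 for prde-1 at high salt and -0.49 for prde-1 at low salt. All scores of fuzziness gave 4.08 for prde-1 at low salt.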

Other observations

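Inside the 2 piRNA clusters of chromosome IV, which the rule leaves out, the same rule found arrays at a lower rate in prde-1 than in wild type. In prde-1 the clusters held 5 arrays at each wash, which was 0.182% (low salt) or 0.187% (high salt) of their dyads. Wild type had 13 arrays with 0.430% of 26041 dyads at low salt, and 20 arrays with 0.629% of 26692 dyads at high salt. Outside the clusters the share was also lower in prde-1, at 0.129% against 0.184% at low salt and 0.312% against 0.414% at high salt. The share of single distances in the window was 24.9% in prde-1 and 31.9% in wild type at low salt, and 28.1% in prde-1 and 34.8% in wild type at high salt. The clusters held 5 (low salt) and 6 (high salt) arrays in auxin, and 7 in ethanol in both cases. These are 1 library each, and the counts of arrays are small.

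The array on the X chromosome that recurred in prde-1 and wild type at high salt spans an annotated tRNA gene, and it was noticed after its values were seen.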
